A study of Mus musculus with 12 samples.

Results

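The TNF superfamily is the family of trimeric cytokines related to tumor necrosis factor, and its receptors form the matching receptor superfamily. Members were taken by gene symbol alone: every Tnfsf or Tnfrsf gene with a number, together with Tnf, Lta, Ltb, Ltbr, Fas, Fasl, Cd40, Cd40lg, Cd27 and Cd70. This gave 41 genes, 17 ligands and 24 receptors, of the 21956 genes in the count table. RNA-seq was performed on brain tissue from 12 mice in 4 groups of 3, namely Sham-Fabp4flox/flox, Sham-Fabp4CKO, ICH-Fabp4flox/flox and ICH-Fabp4CKO. Intracerebral hemorrhage (ICH) was produced by injecting collagenase, an enzyme that breaks down vessel walls, into the right striatum, and tissue bordering the hematoma was collected 48 h later. Tissue of sham mice was taken by the same procedure. Fabp4CKO mice carried floxed Fabp4 and the Tmem119 creERT2 allele, in which the microglial Tmem119 promoter drives a tamoxifen-inducible Cre recombinase. Tamoxifen was given to these mice daily at 150 mg/kg over 7 days, and surgery followed 14 days after the last dose. Fabp4flox/flox mice carried the floxed allele without Cre. Whether they also received tamoxifen, and the age and sex of the sequenced mice, were not given in the sources used here. All 4 groups thus carried floxed Fabp4, and genotype, Cre and possibly tamoxifen differed together between Fabp4flox/flox and Fabp4CKO.

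Ligands of this family are made as membrane proteins, and many are cut off the cell surface to act at a distance. A receptor with a death domain can recruit adaptors that lead to caspase activation or necroptosis, whereas the other signalling receptors bind TRAF proteins directly and lead to NF-kappaB and MAP kinase activation. Decoy receptors bind a ligand without passing on the signal. In the injured brain microglia and infiltrating myeloid cells are known sources of TNF, and the TNF receptors TNFR1 (Tnfrsf1a) and TNFR2 (Tnfrsf1b) are found on glia, neurons and endothelium.

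Total counts per library ranged from 15650813 to 22406216. Fabp4 was counted at 46, 63 and 24 reads in the ICH-Fabp4flox/flox mice and at 5, 3 and 10 in the ICH-Fabp4CKO mice, against 0 to 2 in every sham mouse. The 8 microglial markers measured were detected above 3 counts in all groups, and their summed level ran from 353 to 425 CPM (counts scaled to library size) in both sham groups together. Several libraries stood apart. Striatal neuron markers summed to 4430 CPM in Sham-Fabp4flox/flox mouse 3, 1430 and 1640 CPM in mice 1 and 2, and 2980 to 5240 CPM in Sham-Fabp4CKO. Oligodendrocyte markers summed to 8580 CPM in Sham-Fabp4flox/flox mouse 3 and to 14400 and 15100 CPM in mice 1 and 2. ICH-Fabp4flox/flox mouse 1 had 16.3% of its counts from mitochondrial genes against 7.9 to 11.9% in the other 11. ICH-Fabp4CKO mouse 1 had 1 count over Y-linked genes against 1302 to 2251 in the other 11. The labels give no sex, and this mouse is part of every comparison that uses ICH-Fabp4CKO. ICH-Fabp4CKO mouse 2 was the lowest of its group for 24 of the 28 family members that could be tested, a position it held for 43.9% of all genes tested. Where leaving out a mouse ended the call of a member given by mouse, or moved its printed fold by over 1.5 times, the value without it is given. Levels below are CPM scaled by TMM factors over all 12 libraries.

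Promoters of the family were read from RefSeq on GRCm38.p6, which held entries for 31 of the 41 genes. Each window covers the 250 bases before a transcription start, and 19 of the 35 windows had no base inside an annotated exon. The windows printed here belong to the TNF gene itself, to its receptor Tnfrsf1b, to 2 members that rose after ICH and to Tnfrsf21, the member with the smallest p between the genotypes after ICH. Capitals mark a match to an NF-kappaB motif (GGGNNNTTCC), an interferon response element (ISRE, GAAANNGAAA) or an AP-1 motif (TGANTCA), searched on both strands, and no capitals mean that none of these letter strings occurs in the window. The AP-1 string reads the same on both strands. The windows of Tnf (chr17:35202008-35202257, minus strand), Tnfrsf1b (chr4:145246871-145247120, minus strand), Tnfsf14 (chr17:57194182-57194431, minus strand), Fas (chr19:34290409-34290658, plus strand) and Tnfrsf21 (chr17:43016305-43016554, plus strand) read 5′ to 3′ as follows.
Tnf: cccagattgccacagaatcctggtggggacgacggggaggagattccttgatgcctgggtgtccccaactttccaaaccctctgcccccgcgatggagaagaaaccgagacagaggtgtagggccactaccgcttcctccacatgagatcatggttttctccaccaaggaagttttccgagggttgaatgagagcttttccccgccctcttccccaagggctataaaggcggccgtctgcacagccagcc
Tnfrsf1b: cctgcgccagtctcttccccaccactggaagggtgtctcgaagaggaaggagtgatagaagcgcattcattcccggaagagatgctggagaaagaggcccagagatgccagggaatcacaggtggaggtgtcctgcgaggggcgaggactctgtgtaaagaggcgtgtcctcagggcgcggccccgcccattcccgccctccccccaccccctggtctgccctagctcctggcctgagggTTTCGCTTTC
Tnfsf14: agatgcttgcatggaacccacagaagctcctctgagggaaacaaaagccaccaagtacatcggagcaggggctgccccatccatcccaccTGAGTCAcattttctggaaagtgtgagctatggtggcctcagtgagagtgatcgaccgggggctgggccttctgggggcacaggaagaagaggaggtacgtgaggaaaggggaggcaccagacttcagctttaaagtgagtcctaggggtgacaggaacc
Fas: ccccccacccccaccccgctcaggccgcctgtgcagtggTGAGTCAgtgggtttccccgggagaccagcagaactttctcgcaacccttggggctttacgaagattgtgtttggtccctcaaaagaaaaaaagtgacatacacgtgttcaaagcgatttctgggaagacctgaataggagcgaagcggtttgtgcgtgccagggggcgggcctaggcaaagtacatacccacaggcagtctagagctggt
Tnfrsf21: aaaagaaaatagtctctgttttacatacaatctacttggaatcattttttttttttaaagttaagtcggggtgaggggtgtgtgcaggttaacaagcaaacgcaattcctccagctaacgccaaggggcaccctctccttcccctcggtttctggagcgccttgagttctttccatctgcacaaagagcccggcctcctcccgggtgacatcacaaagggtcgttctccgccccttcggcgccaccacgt

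The ISRE match in Tnfrsf1b lies directly against the start, beginning 10 bases before it, while the AP-1 matches of Tnfsf14 and Fas begin 160 and 211 bases before theirs. The NF-kappaB string was present in 8.57% of the family's windows (Ltb, Tnfrsf9 and Tnfrsf25) and in 4.65% of 32851 mouse promoter windows of the same length. The ISRE string was present in 11.4% of the family's windows (Tnfrsf14, Tnfrsf17, Tnfrsf1b and Tnfsf13b) and in 2.98% of all windows. The AP-1 string was present in 17.1% (Fas, Tnfrsf8, Tnfrsf9, Tnfsf13, Tnfsf13b and Tnfsf14) and in 6.75%. In Ltb the NF-kappaB match, GGAAAGTCCC as read on the gene's strand, begins 87 bases before the start, and in Tnfrsf9 the match GGGGATTTCC begins 43 bases before one of its starts, with an AP-1 match 15 bases before the same start. A match of letters is not a bound site.

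**Figure D1:**
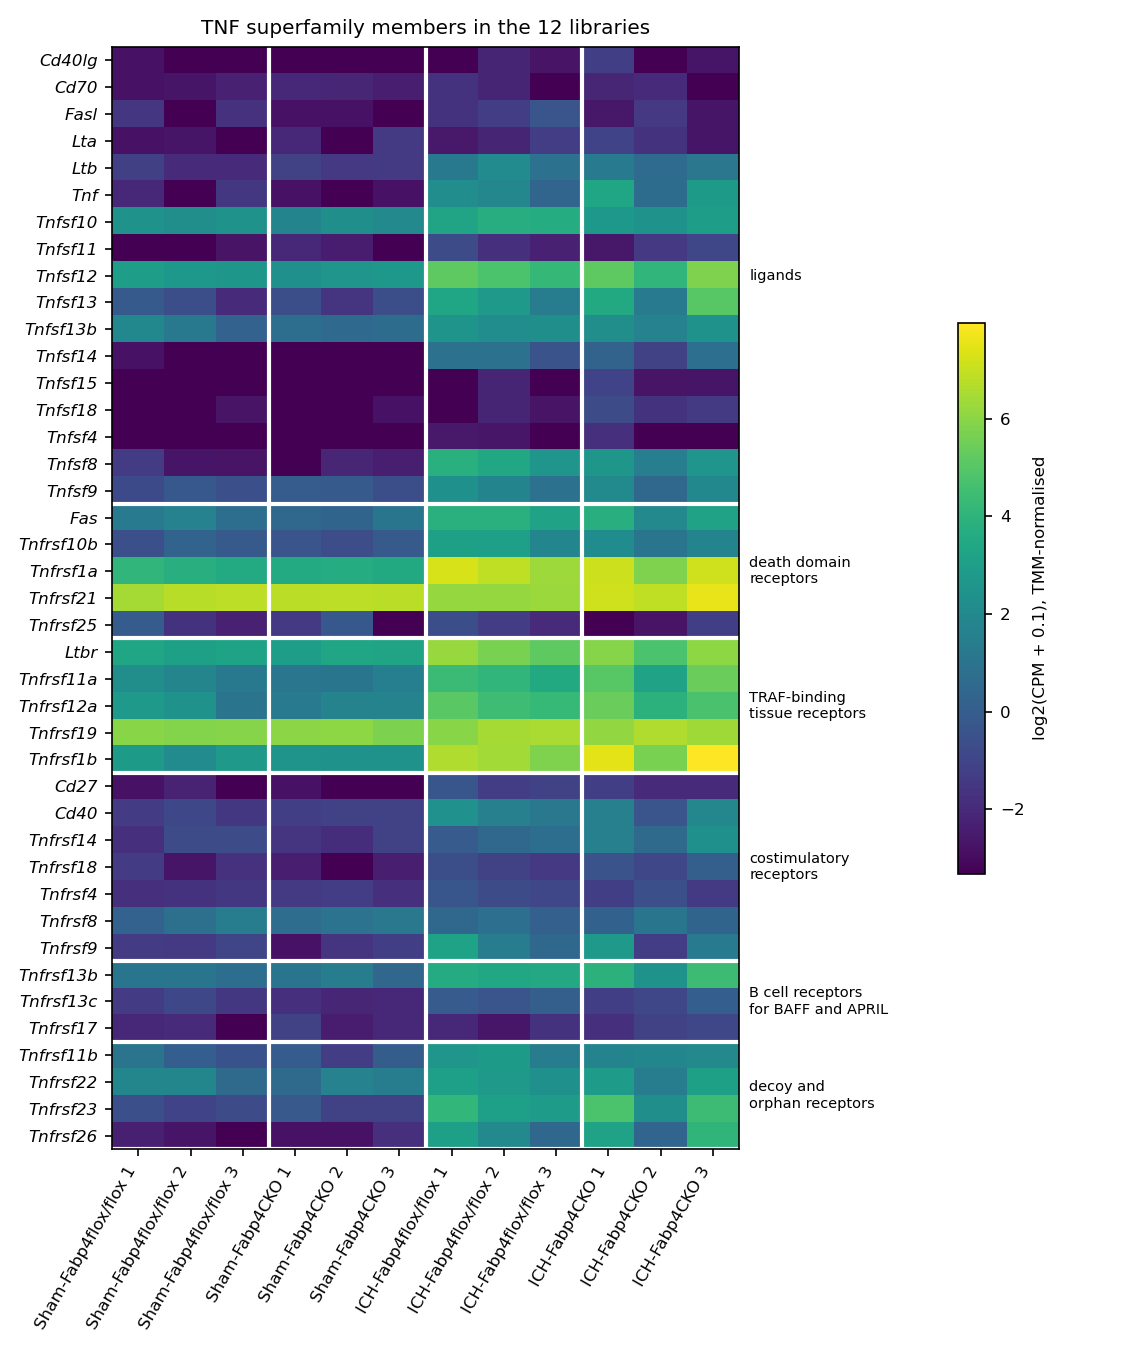
Level of each of the 41 family members (rows, grouped by role) in each of the 12 mice (columns, grouped by surgery and genotype), as the log2 of CPM with a small constant added. Most members are darker in both sham groups and brighter in both ICH groups, and the 13 members with almost no counts form the uniformly low rows.

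Of the 41 members, 13 had too few counts to be tested in any comparison. Among them were Fasl (the ligand of Fas, 0 to 13 counts per library), Cd70 and its receptor Cd27 (0 to 3 and 0 to 10), Cd40lg (the ligand of Cd40, 0 to 5), Tnfsf11 (RANKL, 0 to 8), Lta (lymphotoxin alpha, 0 to 6), and Tnfsf4 and Tnfrsf4 (OX40 ligand and OX40, 0 to 3 and 4 to 11). The others were Tnfsf15 (0 to 6), its receptor Tnfrsf25 (0 to 18), Tnfsf18 (GITR ligand, 0 to 8), its receptor Tnfrsf18 (GITR, 0 to 18) and Tnfrsf17 (the plasma cell receptor BCMA, 0 to 8). Several of these are known chiefly from activated lymphocytes. The 10 T cell markers listed summed to 21.0 to 61.6 CPM in the sham mice, with Cd3g and Cd3d at or under 3 counts in every library of both sham groups. After ICH they summed to 26.5 to 70.7 CPM in Fabp4flox/flox and 42.9 to 66.4 CPM in Fabp4CKO, overlapping sham in both genotypes. At an adjusted p under 0.05 (edgeR), 7 of 9 tested were higher after ICH in Fabp4flox/flox and 4 of 8 in Fabp4CKO. Among all genes 26.2% and 24.5% were higher. Of the 17 ligands, 8 were therefore not measurable at this depth in any group comparison. The count of members at or under 3 counts in every library of both sham groups was 8.

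The first question was how the family responds to ICH in Fabp4flox/flox mice. Most of the family was higher after ICH: 23 of the 28 members tested were higher and 1 was lower at an adjusted p under 0.05 (edgeR, adjusted over all 14719 genes tested). Among all genes tested, 26.2% were higher and 19.3% were lower. The median log2 fold change was 2.46 over the members and 0.0192 over all genes tested, and it stayed at 2.46 with the 2 members at the floor in sham (Tnfsf14 and Tnfrsf26) set to their lower bounds. For 25 members every ICH mouse lay above every sham mouse, against 34.4% of all genes tested. A member that is low in sham passes the filter on low counts only through the ICH libraries, so the count was also taken in ways that do not depend on this. Without the filter 23 of all 41 members were higher, against 20.5% of all genes. With the filter applied to the sham libraries alone 15 of 19 were higher, against 25.1%. In bulk tissue, more cells of a type and more RNA per cell cannot be told apart, and markers of other cell types moved in the same comparison. The summed level of 9 monocyte and macrophage markers was 13.9 to 53.5 CPM in Sham-Fabp4flox/flox and 772 to 2000 CPM in ICH-Fabp4flox/flox, and that of the microglial markers went from 353 to 425 CPM to 1450 to 1700 CPM. Their part in the rise of the family was not tested.

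Tnf (ENSMUSG00000024401, chr17:35199381-35202007 on GRCm38) was nearly absent in sham tissue, with 0.145, 0 and 0.258 CPM in the Sham-Fabp4flox/flox mice and 0.0462, 0 and 0.046 CPM in the Sham-Fabp4CKO mice. After ICH it was 4.57, 3.68 and 1.17 CPM in Fabp4flox/flox and 10, 1.49 and 6.94 CPM in Fabp4CKO. All 6 ICH mice lay above all 6 sham mice, and the ICH groups overlapped. In Fabp4flox/flox the log2 fold change was 4.40 (SE 0.84, adjusted p = 0.00585, edgeR), and 5.14 without Sham-Fabp4flox/flox mouse 3. In Fabp4CKO all sham mice were at or under 3 counts, so the change there is given as a bound of at least 44.9-fold against the mean of the 3-count floors (adjusted p = 0.00768, edgeR). The genes on either side of Tnf belong to the same family. Ltb, lymphotoxin beta, at chr17:35194439-35196320, rose in both genotypes (log2 fold change 3.55 and 2.70, adjusted p = 0.00243 and 0.0066), whereas Lta at chr17:35203165-35205351 did not exceed 6 counts in any library.

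Tnfsf8, the ligand of CD30, and Tnfsf14, known as LIGHT, were also close to absent in sham tissue. Tnfsf8 was 0.289, 0.0548 and 0.0516 CPM in Sham-Fabp4flox/flox and 14.3, 10.9 and 5.74 CPM in ICH-Fabp4flox/flox, a log2 fold change of 6.12 (SE 0.62, adjusted p = 0.000548, edgeR), and 7.32 without Sham-Fabp4flox/flox mouse 1. In Fabp4CKO it was 0, 0.134 and 0.0919 CPM in sham and 6.14, 2.77 and 5.9 CPM after ICH, at least 36.0-fold higher than the floor (adjusted p = 0.00589). The groups did not overlap in either genotype. Its receptor Tnfrsf8 (CD30) stayed between 1.01 and 2.63 CPM in all 12 mice and was called in neither genotype (log2 fold change -0.51 and -0.43, adjusted p = 0.358 and 0.336, edgeR). Tnfsf14 was 0.0482, 0 and 0 CPM in Sham-Fabp4flox/flox, 0 in every Sham-Fabp4CKO mouse, 1.76, 1.75 and 0.638 CPM in ICH-Fabp4flox/flox and 1.1, 0.373 and 1.64 CPM in ICH-Fabp4CKO. This was at least 8.93-fold and at least 7.57-fold higher than the floor, with an adjusted p of 0.00265 in Fabp4flox/flox (edgeR). In Fabp4CKO it missed the filter on low counts.

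Tnfsf13 (APRIL, a ligand of B cell receptors) was 0.819, 0.548 and 0.155 CPM in Sham-Fabp4flox/flox and 10.2, 6.86 and 2.6 CPM in ICH-Fabp4flox/flox. The Fabp4CKO levels were 0.555, 0.224 and 0.552 CPM in sham and 11.6, 2.5 and 32.4 CPM after ICH. The log2 fold changes were 3.61 (SE 0.67, adjusted p = 0.00522, edgeR) and 5.11 (SE 1.04, adjusted p = 0.0165), and ICH-Fabp4CKO mouse 3 lay far above mice 1 and 2 (3.95 without it, and adjusted p = 0.0511 without mouse 1). Tnfsf12 (TWEAK) rose with log2 fold changes of 1.94 and 2.63. Tnfsf12 and Tnfsf13 share 48.3% and 60% of their exon bases with a read-through gene that is also in the count table, and their counts were not whole numbers in any library, so reads could have been divided among the 3 genes. Of the other ligands, Tnfsf9 (4-1BB ligand) rose in both genotypes (log2 fold change 2.42 and 2.02). Tnfsf13b (BAFF) was called in Fabp4CKO alone (1.57, adjusted p = 0.0111, against 1.05, adjusted p = 0.0775, in Fabp4flox/flox). The interaction of surgery and genotype for Tnfsf13b was 0.48 on the log2 scale (adjusted p = 0.803, edgeR).

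Tnfsf10 (TRAIL, the ligand of the death receptor Tnfrsf10b) changed least among the ligands called in Fabp4flox/flox. It was 5.35, 4.71 and 5.32 CPM in Sham-Fabp4flox/flox and 9.71, 13.0 and 12.5 CPM in ICH-Fabp4flox/flox, and the groups did not overlap (log2 fold change 1.16, SE 0.20, adjusted p = 0.00424, edgeR). Fabp4CKO mice had 3.33, 4.79 and 3.91 CPM in sham and 6.46, 5.49 and 8.03 CPM after ICH, also without overlap, but the adjusted p of 0.0531 missed the threshold (log2 fold change 0.73, SE 0.24). It was called there with DESeq2 (adjusted p = 0.0226) and without ICH-Fabp4CKO mouse 2 (0.0117).

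**Figure D2:**
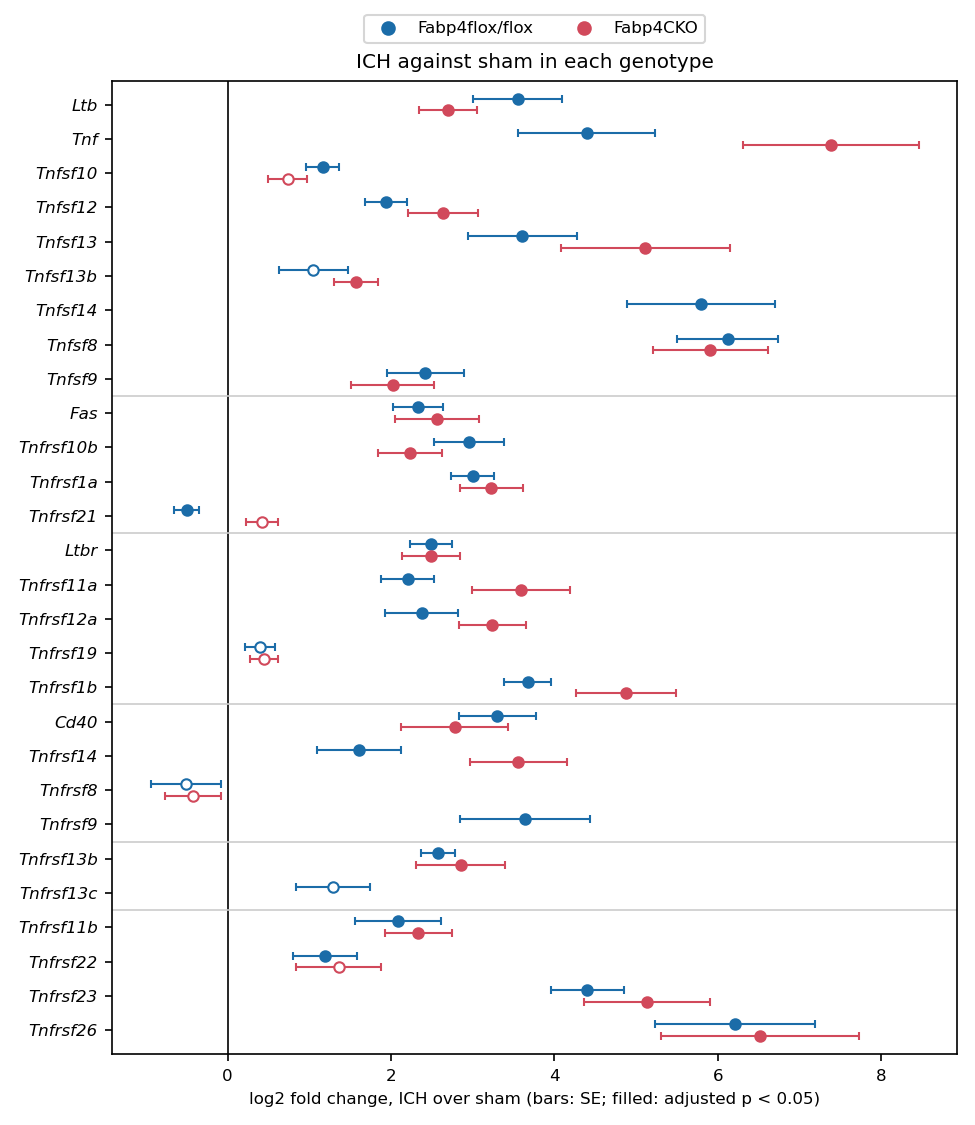
Log2 fold change of ICH against sham with its standard error for each tested family member, in Fabp4flox/flox and in Fabp4CKO mice. Filled points have an adjusted p under 0.05, and the fitted values of members at the floor in sham (Tnfsf14 and Tnfrsf26 in Fabp4flox/flox, Tnf and Tnfsf8 in Fabp4CKO) are no bounds. Most points lie to the right of 0, Tnfrsf21 is the filled point left of 0 in Fabp4flox/flox, and Tnfrsf8 and Tnfrsf19 are open in both genotypes.

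Of the 5 death domain receptors, 3 rose in both genotypes, namely Tnfrsf1a, Fas and Tnfrsf10b. The share of all genes tested that rose was 26.2% in Fabp4flox/flox and 24.5% in Fabp4CKO. The share that rose in both was not counted. Tnfrsf1a, the receptor that carries TNF's death and NF-kappaB signals, was 17.2, 13.3 and 11.9 CPM in Sham-Fabp4flox/flox, 12, 12.7 and 11.5 CPM in Sham-Fabp4CKO, 154, 117 and 79.6 CPM in ICH-Fabp4flox/flox and 140, 55.5 and 143 CPM in ICH-Fabp4CKO. Each ICH mouse was above every sham mouse. The log2 fold change was 3.0 (SE 0.26, adjusted p = 0.000399, edgeR) in Fabp4flox/flox and 3.23 (SE 0.39, adjusted p = 0.00589) in Fabp4CKO. Fas, the receptor of FAS ligand, rose with log2 fold changes of 2.33 and 2.56, while its ligand was too low to test. Tnfrsf10b, the mouse TRAIL death receptor, rose with log2 fold changes of 2.96 and 2.23.

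Tnfrsf21 (death receptor 6, DR6), a receptor known from neurons and oligodendrocytes, took another course. Its level was 86.4, 108 and 114 CPM in Sham-Fabp4flox/flox and 73.7, 72.4 and 77.7 CPM in ICH-Fabp4flox/flox. All ICH mice were below all sham mice, and the log2 fold change was -0.50 (SE 0.15, adjusted p = 0.0329, edgeR). This call did not hold without 1 library: the adjusted p was 0.089 without Sham-Fabp4flox/flox mouse 2, 0.0717 without Sham-Fabp4flox/flox mouse 3, 0.0626 without ICH-Fabp4flox/flox mouse 1 and 0.0887 without ICH-Fabp4flox/flox mouse 2. Neuronal markers were lower in the same comparison, with 6 of 7 called and a sum of 1550 to 3210 CPM after ICH against 4640 to 5480 CPM in sham. Oligodendrocyte markers were higher there, with 3 of 7 called and a sum of 18900 to 29200 CPM against 8580 to 15100 CPM. The part of these cell types in the Tnfrsf21 result was not tested. In Fabp4CKO the levels were 112, 114 and 112 CPM in sham and 143, 118 and 193 CPM after ICH. There all ICH mice were above all sham mice, with a log2 fold change of 0.43 (SE 0.20) that was not called (adjusted p = 0.123). Neuronal markers in Fabp4CKO summed to 1400 to 4060 CPM after ICH against 4900 to 5020 CPM in sham. The oligodendrocyte sum was 7310 to 11700 CPM against 10300 to 11200 CPM.

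Among the 5 TRAF-binding receptors of tissue cells, 4 rose in both genotypes. Of all genes tested 26.2% rose in Fabp4flox/flox and 24.5% in Fabp4CKO, and the share in both was not counted. Tnfrsf1b, TNFR2, was 7.13, 4.27 and 6.71 CPM in Sham-Fabp4flox/flox and 99.3, 85.0 and 54.7 CPM in ICH-Fabp4flox/flox, a 12.7-fold rise (log2 fold change 3.67, SE 0.29, adjusted p = 0.00035, edgeR). In Fabp4CKO it was 5.69, 5.42 and 5.47 CPM in sham and 183, 51.7 and 251 CPM after ICH, a 29.3-fold rise (log2 fold change 4.87, SE 0.61, adjusted p = 0.00605). The 3 ICH-Fabp4CKO mice bracketed the ICH-Fabp4flox/flox mice, mouse 2 below them and mice 1 and 3 above. Tnfrsf11a (RANK, the receptor of RANKL) was 4.67, 3.4 and 2.27 CPM in Sham-Fabp4flox/flox and 20.7, 17.1 and 11.5 CPM in ICH-Fabp4flox/flox. Fabp4CKO mice had 2.03, 1.97 and 2.85 CPM in sham and 32.3, 8.9 and 41.4 CPM after ICH. The log2 fold changes were 2.2 (SE 0.32, adjusted p = 0.00199, edgeR) and 3.59 (SE 0.60, adjusted p = 0.0101). Ltbr (the lymphotoxin beta receptor) had log2 fold changes of 2.49 in each genotype, and Tnfrsf12a (Fn14, the receptor of TWEAK) had 2.37 and 3.24. Tnfrsf19 (TROY) was already 54.3 to 66.8 CPM in the sham mice and was called in neither genotype with edgeR (log2 fold change 0.39 and 0.44, adjusted p = 0.117 and 0.0795). In Fabp4CKO every ICH mouse lay above every sham mouse for it, and DESeq2 gave an adjusted p of 0.0477.

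Of the 7 costimulatory receptors of lymphocytes and antigen-presenting cells, Cd27, Tnfrsf4 and Tnfrsf18 were too low to test. Cd40 rose in both genotypes (log2 fold change 3.30 and 2.78). Tnfrsf9 (4-1BB) was 0.289, 0.274 and 0.413 CPM in Sham-Fabp4flox/flox and 9.22, 2.56 and 1.28 CPM in ICH-Fabp4flox/flox (log2 fold change 3.64, SE 0.80, adjusted p = 0.00983, edgeR), and the log2 fold change was 2.49 without mouse 1 (adjusted p = 0.0126). In Fabp4CKO, where it missed the filter, it was 0.0462, 0.224 and 0.322 CPM in sham and 6.79, 0.32 and 2.4 CPM after ICH, so that the groups overlapped. Tnfrsf14 (HVEM, the receptor of LIGHT) was 0.193, 0.493 and 0.516 CPM in Sham-Fabp4flox/flox and 0.844, 1.31 and 1.59 CPM in ICH-Fabp4flox/flox (log2 fold change 1.61, SE 0.52, adjusted p = 0.0376). In Fabp4CKO it was 0.231, 0.179 and 0.368 CPM in sham and 2.97, 1.39 and 4.97 CPM after ICH (log2 fold change 3.56, SE 0.60, adjusted p = 0.0103). In both genotypes its ICH mice lay above its sham mice. Cd27 was at least 2.99-fold higher than the floor after ICH in Fabp4flox/flox, and Tnfrsf18 and Tnfsf18 at least 5.0-fold and 2.44-fold in Fabp4CKO, with no test.

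Of the receptors for BAFF and APRIL, Tnfrsf13b (TACI) rose in both genotypes (log2 fold change 2.58 and 2.85), and Tnfrsf13c (BAFF receptor) narrowly missed the threshold in Fabp4flox/flox (1.29, adjusted p = 0.0504). The 4 decoy and orphan receptors were all higher in Fabp4flox/flox, beside 26.2% of all genes tested. Tnfrsf26, Tnfrsf22 and Tnfrsf23 lie side by side at chr7:143607659-143628722, chr7:143634806-143649661 and chr7:143665809-143685872. Tnfrsf23, a decoy for TRAIL, was 0.578, 0.383 and 0.516 CPM in Sham-Fabp4flox/flox and 17.7, 8.23 and 7.17 CPM in ICH-Fabp4flox/flox. Levels in Fabp4CKO were 0.786, 0.358 and 0.368 CPM in sham and 27.4, 4.85 and 21.2 CPM after ICH. The log2 fold changes were 4.41 (SE 0.45, adjusted p = 0.00055, edgeR) and 5.13 (SE 0.77, adjusted p = 0.00822). Tnfrsf26 was 0.0964, 0.0548 and 0 CPM in Sham-Fabp4flox/flox and 8.23, 4.05 and 1.28 CPM in ICH-Fabp4flox/flox, at least 29.2-fold above the floor (adjusted p = 0.00274, edgeR) and at least 17.2-fold without ICH-Fabp4flox/flox mouse 1. In Fabp4CKO it was 0.0462, 0.0448 and 0.184 CPM in sham and 9.11, 1.17 and 16.5 CPM after ICH (log2 fold change 6.52, SE 1.21, adjusted p = 0.0131), and the log2 fold change was 7.42 without Sham-Fabp4CKO mouse 3 and 5.69 without ICH-Fabp4CKO mouse 3.

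The neighbour Tnfrsf22 had log2 fold changes of 1.19 (adjusted p = 0.0401, edgeR) and 1.36 (adjusted p = 0.0785). In Fabp4CKO its groups overlapped, and DESeq2 gave an adjusted p of 0.0346. Tnfrsf22 and Tnfrsf23 share 719 stretches of 50 bases in their transcripts, 17.3% and 18% of each, and Tnfrsf22 had fractional counts in all 12 libraries, so their split is uncertain. Tnfrsf23, Tnfrsf26, Tnfsf9, Tnfsf13 and Tnfrsf18 also overlap RNAs from the opposite strand by 4.14%, 3.33%, 14.9%, 13.5% and 27.2% of their exon bases, and strand was not stated for the counting. Tnfrsf11b (osteoprotegerin, a soluble decoy for RANKL and TRAIL) rose with log2 fold changes of 2.09 and 2.34.

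In Fabp4CKO mice as a whole, 20 of the 25 members tested were higher after ICH and 0 were lower at an adjusted p under 0.05 (edgeR), against 24.5% and 11.1% of all genes tested. At an unadjusted p under 0.05, 23 were higher and 0 lower, against 30.3% and 22.2% of all genes, and DESeq2 called 23 and 0, against 28.2% and 24.0%. For 23 members the groups did not overlap, ICH above sham, against 33.2% of all genes. Without the filter on low counts 24 of 41 members were higher against 19.3% of genes, and with the filter on sham libraries alone 15 of 19 against 22.7%. The median log2 fold change was 2.7 over the members and 0.0138 over all genes tested. The count of calls in this genotype rested on single mice: it was 8 without Sham-Fabp4CKO mouse 1 or mouse 2, 6 without Sham-Fabp4CKO mouse 3, 14 without ICH-Fabp4CKO mouse 1, 26 without ICH-Fabp4CKO mouse 2 and 18 without ICH-Fabp4CKO mouse 3. The calls over all genes moved with it, to 5.32%, 5.12%, 4.69%, 9.63%, 34.8% and 15.8% higher in the same order of mice. Of the members given by mouse, those whose adjusted p rose above 0.05 in this genotype without a sham mouse were Tnf (0.0507 without mouse 3), Tnfrsf23 (0.0521 and 0.0511 without mouse 2 and 3) and, without any 1 of the 3, Tnfrsf26 (up to 0.067), Tnfsf13 (up to 0.0758), Tnfrsf11a (up to 0.0576) and Tnfrsf14 (up to 0.0583). Of the 25 members tested in both genotypes, 19 were higher in both, 2 in Fabp4flox/flox alone (Tnfrsf22 and Tnfsf10) and 1 in Fabp4CKO alone (Tnfsf13b). The share of all genes higher in both genotypes was not counted, so these numbers have no background beside them.

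**Figure D3:**
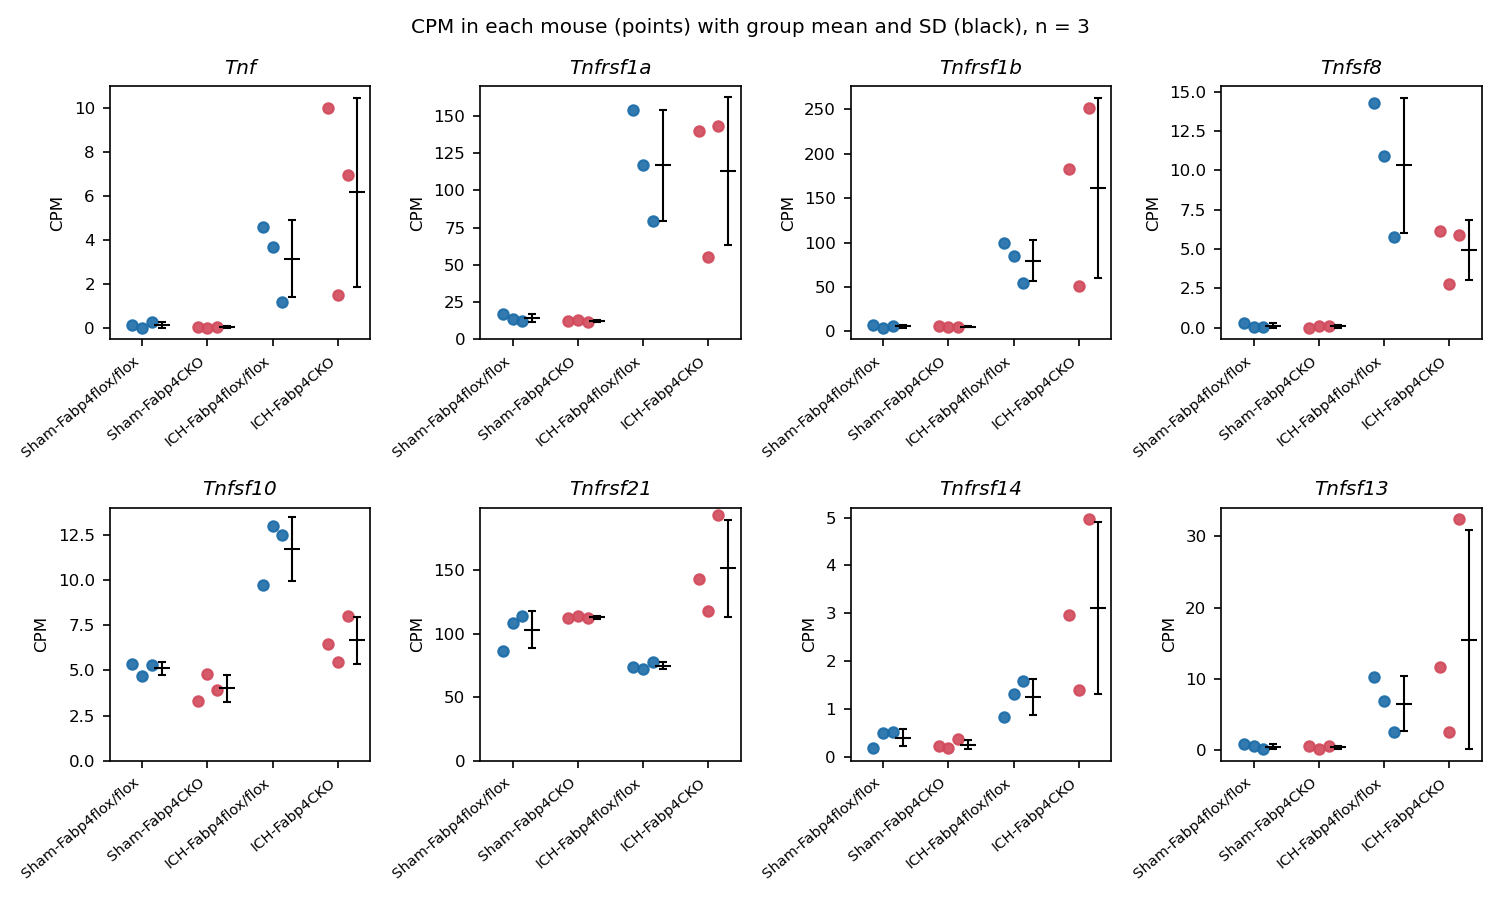
CPM in each mouse (points) with the group mean and SD (bars) for Tnf, its receptors Tnfrsf1a and Tnfrsf1b, Tnfsf8, Tnfsf10, Tnfrsf21, Tnfrsf14 and Tnfsf13. In all but Tnfrsf21 both ICH groups lie above both sham groups, and Tnfrsf21 is lowest in ICH-Fabp4flox/flox (72.4 to 77.7 CPM) and highest in ICH-Fabp4CKO (118 to 193 CPM).

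Levels can be compared between genes only per length of transcript, here as CPM per kilobase of exon. In Sham-Fabp4flox/flox tissue Tnfrsf21 led the family at 25.1 ± 3.57 CPM per kilobase (SD, n = 3), followed by Tnfrsf19 at 12.7 ± 0.442 and, lower, Tnfrsf1a at 5.45 ± 1.08, Tnfsf12 at 4.52 ± 0.687 and Ltbr at 3.94 ± 0.369. Tnfrsf1a and Tnfsf12, and Tnfsf12 and Ltbr, lay within each other's spread, and Tnfrsf1a lay above Ltbr in every mouse. In ICH-Fabp4flox/flox Tnfrsf1a had the highest mean at 45.1 ± 14.4 CPM per kilobase (SD, n = 3), and its spread overlapped that of Ltbr. Ltbr at 22.9 ± 8.07, Tnfrsf1b at 20.9 ± 5.97, Tnfrsf21 at 18.2 ± 0.671, Tnfsf12 at 17.9 ± 5.95 and Tnfrsf19 at 17 ± 3.47 were not separated beyond their SDs. In ICH-Fabp4CKO the first places were taken by Tnfrsf1a at 43.5 ± 19.2, Tnfrsf1b at 42.4 ± 26.5 and Tnfrsf21 at 36.8 ± 9.36, again within their spread.

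Ligands and receptors were also read as known pairs. Of 27 pairs, both partners were higher after ICH in 12 in Fabp4flox/flox and in 6 in Fabp4CKO. These include TNF with each of its receptors, lymphotoxin beta with Ltbr, and TWEAK with Fn14 in both genotypes. LIGHT with HVEM was such a pair in Fabp4flox/flox, where LIGHT could be tested. In 6 pairs in Fabp4flox/flox and 8 in Fabp4CKO the receptor was higher and the ligand too low to test, as for Fas, Cd40 and RANK. Several pairs share a gene, so pairs are not separate counts, and no share over all genes stands beside them. TRAIL is in several pairs and missed the threshold in Fabp4CKO (adjusted p = 0.0531, edgeR). LIGHT and Tnfrsf9 missed the filter on low counts there. Whether the pair counts differ between the genotypes was not tested.

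The adaptors, proteases and targets of the family were counted in the same comparisons, in which 26.2% (Fabp4flox/flox) and 24.5% (Fabp4CKO) of all genes were higher. Of 32 adaptors and proximal signalling genes, 21 rose and 0 fell in Fabp4flox/flox and 20 rose and 2 fell in Fabp4CKO (adjusted p under 0.05, edgeR, medians of 0.961 and 0.951 on the log2 scale, against 0.0192 and 0.0138 for all genes). Ripk3, a kinase of necroptosis, was at least 49.0-fold above the floor in Fabp4flox/flox, and Casp8, the caspase recruited by death receptors, had a log2 fold change of 3.33 (SE 0.30, adjusted p = 0.00041). Nfkb2, which encodes the p100 precursor of NF-kappaB, rose by log2 fold changes of 2.47 and 2.70. Birc3, an inhibitor of apoptosis that binds TRAF2 (2.51 and 2.87), and Nfkb1 (1.35 and 1.81) rose in both genotypes. The 2 that fell in Fabp4CKO were Cyld, a deubiquitinase that restrains NF-kappaB (log2 fold change -0.77, adjusted p = 0.0373), and Traf3 (-0.42, adjusted p = 0.0461).

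Of 9 genes for cutting and processing the ligands, 7 rose in each genotype, beside 26.2% and 24.5% of all genes, with median log2 fold changes of 1.06 and 1.32. Adam17, the protease that releases TNF from the membrane, rose with a log2 fold change of 1.69 (SE 0.19, adjusted p = 0.000736) in Fabp4flox/flox. Its carriers Rhbdf1 (2.2 and 1.70) and Rhbdf2 (3.41 and 4.25) rose in both genotypes, and Frmd8, which stabilizes that complex, was among the 3 smallest p in Fabp4CKO (1.00).

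Of the 14 measured TNF-induced target genes in Fabp4flox/flox, 11 rose and 1 fell (median 3.5 on the log2 scale), and of 16 in Fabp4CKO 14 rose and 1 fell (median 5.36). Among all genes 26.2% and 24.5% rose. The medians cover different genes, as Cxcl2 and Il6 were tested in Fabp4CKO alone. In Fabp4CKO Sele, Selp, Cxcl1, Cxcl2 and Il6 were at the floor in sham, and their fitted values in that median are no bounds. The chemokines Ccl2 (7.20 and 7.85) and Cxcl10 (6.81 in Fabp4flox/flox) and the adhesion molecules Icam1 (3.75 and 4.15) and Vcam1 (1.77 and 1.49) rose. Sele and Selp, the selectins of activated endothelium, had log2 fold changes of 5.35 and 7.56 in Fabp4flox/flox and were at least 21.2-fold and 99.7-fold above the floor in Fabp4CKO. Sod2, a mitochondrial superoxide dismutase, was the one that fell in each genotype (-0.60, adjusted p = 0.0322, and -0.72, adjusted p = 0.0347). Among 5 relatives in the receptor superfamily that carry other symbols, Eda2r rose in both genotypes (2.69 and 3.63). Ngfr, the neurotrophin receptor p75, fell in Fabp4CKO (-2.39, SE 0.49, adjusted p = 0.017) and not in Fabp4flox/flox (-0.22, adjusted p = 0.444), and the interaction for Ngfr was -2.21 (adjusted p = 0.264, edgeR).

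The next question was whether the family differs between the genotypes after ICH, where the Fabp4 deletion in microglia would act. With the threshold on adjusted p, 0 of the 28 members tested differed in either direction (edgeR), and 0.0% of all 14600 genes tested did. At an unadjusted p under 0.05, 2 members were higher in Fabp4CKO (Tnfrsf21 and Tnfrsf14) and 1 was lower (Tnfsf10), which is 2 and 1 of 28 beside 6.34% and 5.82% of all genes, shares close to those of the genes at large. The groups did not overlap for 1 member in each direction (Tnfrsf21 and Tnfsf10), beside 8.3% higher and 11.5% lower among all genes. The median log2 fold change was 0.0085 over the members and 0.062 over all genes tested. DESeq2 called 1 member higher, Tnfrsf21, at an adjusted p under 0.05, beside 1.75% of all genes.

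Tnfrsf21 was 2.1-fold higher in ICH-Fabp4CKO (143, 118 and 193 CPM) than in ICH-Fabp4flox/flox (73.7, 72.4 and 77.7 CPM). The log2 fold change was 1.07 (SE 0.22, adjusted p = 0.295, edgeR). The adjusted p was 0.00219 with DESeq2 and 0.0262 with all 12 libraries in one edgeR fit (1.02% of all genes called higher), and over all alternatives it ran up to 0.686. The log2 fold change was 1.12 without ICH-Fabp4CKO mouse 1, 1.23 without mouse 2 and 1.04 without ICH-Fabp4flox/flox mouse 1. In the same mice the summed level of 7 oligodendrocyte markers was 11200, 11700 and 7310 CPM in ICH-Fabp4CKO and 29200, 24900 and 18900 CPM in ICH-Fabp4flox/flox, with 7 of 7 markers lower in Fabp4CKO at an unadjusted p under 0.05 and none at an adjusted p. Neuronal markers summed to 1980, 4060 and 1400 CPM and 1550, 2320 and 3210 CPM. The part of these cell types in the Tnfrsf21 result was not tested.

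Tnfsf10 was 6.46, 5.49 and 8.03 CPM in ICH-Fabp4CKO and 9.71, 13.0 and 12.5 CPM in ICH-Fabp4flox/flox, a fold of 0.587 (log2 fold change -0.77, SE 0.24, adjusted p = 0.345, edgeR). DESeq2 gave an adjusted p of 0.0699. The unadjusted p was 0.0576 without ICH-Fabp4CKO mouse 1 and 0.061 without ICH-Fabp4flox/flox mouse 2. Endothelial markers moved the same way, at 524, 410 and 459 CPM against 1630, 1050 and 747 CPM, with 11 of 12 lower at an unadjusted p under 0.05. NK cell markers summed to 3.49, 1.92 and 3.06 CPM against 6.4, 12 and 5.37 CPM. Their part in the Tnfsf10 result was not tested.

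Tnfrsf14 was 2.97, 1.39 and 4.97 CPM in ICH-Fabp4CKO and 0.844, 1.31 and 1.59 CPM in ICH-Fabp4flox/flox, and the groups overlapped (log2 fold change 1.35, SE 0.55, adjusted p = 0.399, edgeR). Its p was above 0.05 without any 1 of the other 5 ICH mice and below it, at 0.00702, without ICH-Fabp4CKO mouse 2. Myeloid markers spread widely in the same mice. The monocyte and macrophage sum was 4970, 1020 and 8470 CPM in ICH-Fabp4CKO and 2000, 1570 and 772 CPM in ICH-Fabp4flox/flox, and 6 of 8 tested neutrophil markers were higher in Fabp4CKO at an unadjusted p under 0.05. Among neutrophil markers Ly6g and Mpo were at or under 3 counts in every ICH-Fabp4flox/flox library and Elane in every ICH-Fabp4CKO library. The part of these cells was not tested.

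For TNF and its receptors the genotypes were not separated after ICH. Tnf had a log2 fold change of 1.04 (SE 0.75, adjusted p = 0.601), Tnfrsf1b of 1.09 (SE 0.55, adjusted p = 0.471) and Tnfrsf1a of 0.01 (SE 0.41, adjusted p = 0.993), all from edgeR. Tnfsf8 was lower by -0.99 (SE 0.43, adjusted p = 0.423) and Tnfrsf10b by -0.99 (SE 0.44, adjusted p = 0.431), neither past the threshold. The picture depended on ICH-Fabp4CKO mouse 2. Without it 10 members were higher in Fabp4CKO at an unadjusted p under 0.05, namely Tnfrsf13b, Tnfrsf21, Tnf, Tnfrsf11a, Tnfrsf1b, Tnfrsf23, Tnfrsf14, Tnfrsf26, Tnfsf13 and Tnfsf12, and 0 passed the adjusted threshold. Without it 13.1% of all genes were higher at the unadjusted p. That mouse had the lowest monocyte and macrophage sum of its group, 1020 CPM against 4970 and 8470 CPM, and the lowest fibroblast sum, 75.2 CPM against 1140 and 2320 CPM. Microglial markers summed to 2950, 1490 and 4350 CPM in ICH-Fabp4CKO and 1700, 1450 and 1510 CPM in ICH-Fabp4flox/flox. Of the 8 tested, 3 were higher in Fabp4CKO at an unadjusted p under 0.05 (edgeR), beside 6.34% of all genes. The part of these cells was not tested.

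**Figure D4:**
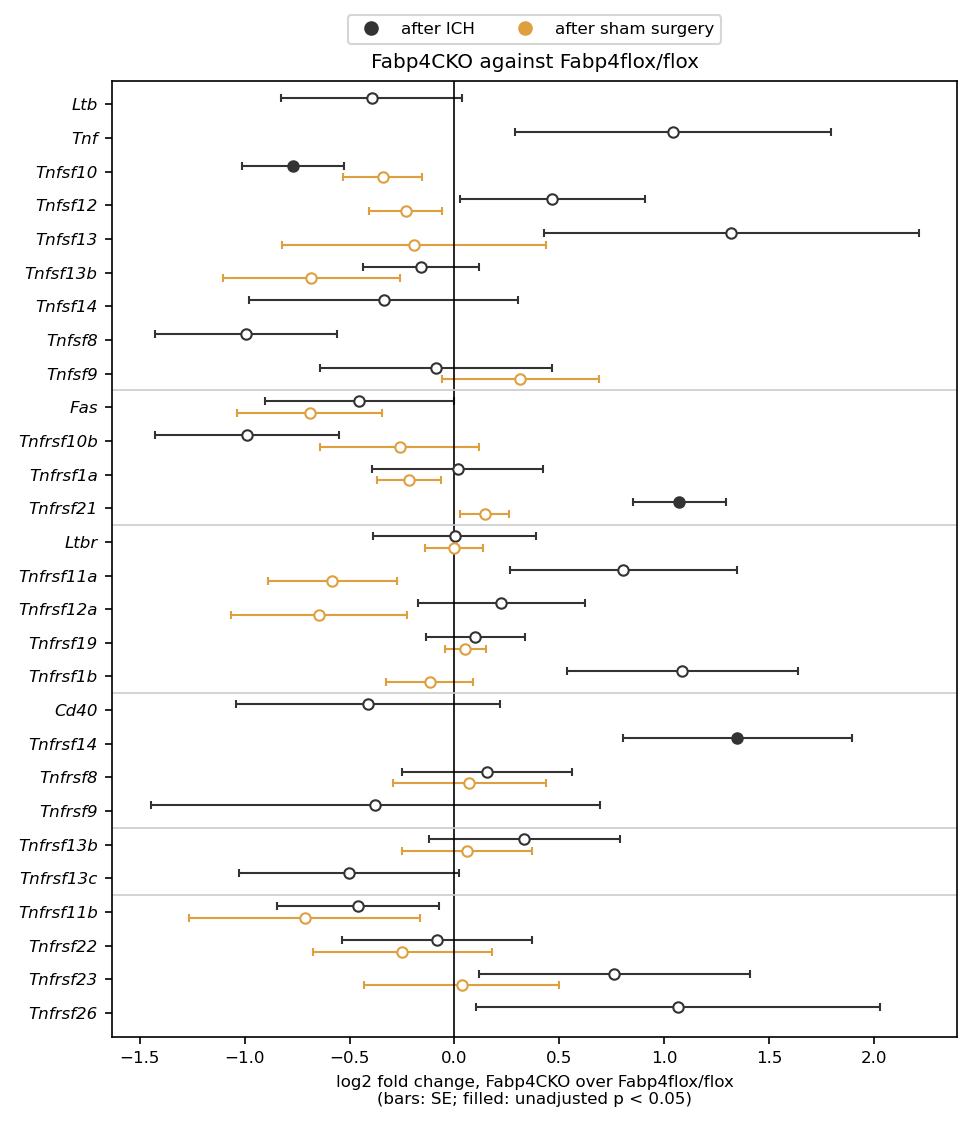
Log2 fold change of Fabp4CKO against Fabp4flox/flox with its standard error for each tested member, after ICH and in sham mice. Filled points have an unadjusted p under 0.05, which are Tnfrsf21, Tnfrsf14 and Tnfsf10 after ICH and none in sham.

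**Figure D5:**
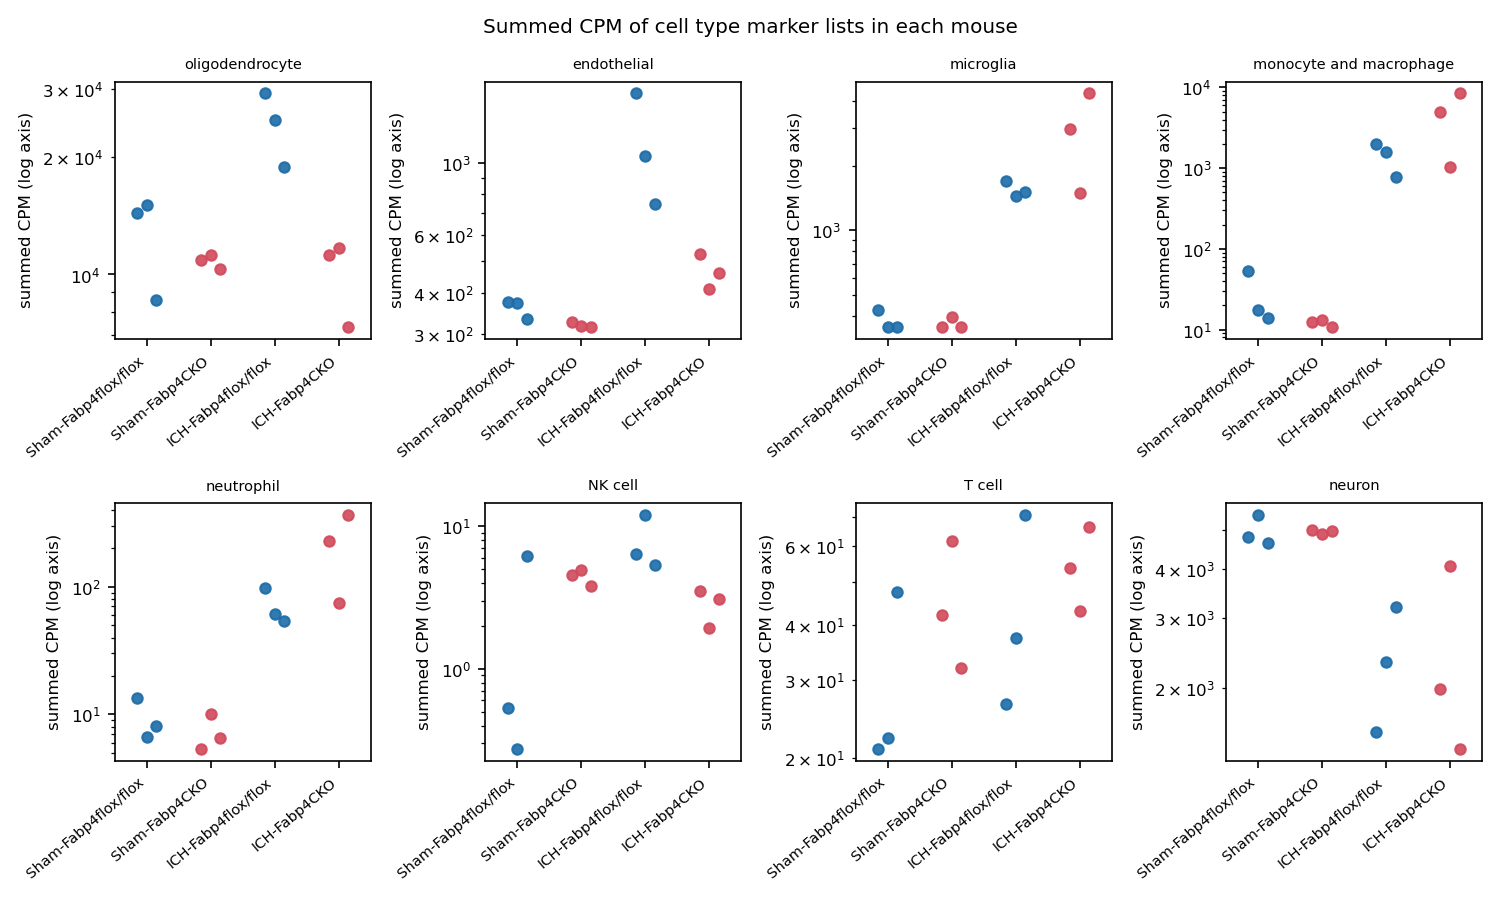
Summed CPM of 8 lists of cell type markers in each mouse on a log axis, by group. Monocyte and macrophage markers are higher in both ICH groups than in both sham groups, and oligodendrocyte and endothelial markers are lower in ICH-Fabp4CKO than in ICH-Fabp4flox/flox.

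Around the family, 0 genes of the adaptor, shedding, target and relative lists passed the adjusted threshold between the genotypes after ICH (edgeR). At an unadjusted p under 0.05, 0 of 32 adaptors did. Of all genes tested, 6.34% were higher and 5.82% lower in Fabp4CKO at that threshold. Of 16 target genes 2 were higher in Fabp4CKO, Tnfaip3 (A20, a brake on NF-kappaB, log2 fold change 1.23, adjusted p = 0.354) and Cxcl2 (2.87, adjusted p = 0.356). The 3 that were lower were Cxcl10 (-1.19, adjusted p = 0.365), Tnfaip6 (-0.46, adjusted p = 0.383) and Vcam1 (-0.64, adjusted p = 0.392). Icam1 (-0.27, adjusted p = 0.792), Sele (-0.62, adjusted p = 0.821) and Selp (-1.54, adjusted p = 0.529) were not past it. Of the 9 shedding genes Rhbdf1 was lower (-0.70, adjusted p = 0.314), and of the relatives Ngfr (-1.48, adjusted p = 0.316).

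In sham mice 19 members could be tested between the genotypes, and 0 passed an adjusted or an unadjusted p of 0.05 in either direction with edgeR, with 0 at an adjusted p by DESeq2. Among all genes 0.0% were higher and 0.111% lower at the adjusted threshold, and 4.15% and 6.07% at the unadjusted one. The median log2 fold change was -0.217 over the members and 0.0026 over all genes. Without Sham-Fabp4flox/flox mouse 3, 5 members were lower in Sham-Fabp4CKO at an unadjusted p under 0.05 (Tnfrsf12a, Fas, Tnfrsf11a, Tnfrsf1a and Tnfsf13b), of which Tnfrsf12a and Tnfsf13b passed the adjusted threshold. Without that mouse 16.2% and 9.12% of all genes were lower at these thresholds.

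Whether the response to ICH itself differed between the genotypes was tested as the interaction of surgery and genotype over all 12 libraries. At an adjusted p under 0.05, 0 of 28 members passed in either direction (edgeR), beside 0.0133% of genes with a larger and 0.00663% with a smaller response in Fabp4CKO. At an unadjusted p under 0.05, 2 members had a larger response in Fabp4CKO and 0 a smaller one, beside 5.57% and 4.37% of all genes. Tnfrsf21 had an interaction of 0.89 on the log2 scale (SE 0.25, adjusted p = 0.304, edgeR), and DESeq2 gave 0.94 (adjusted p = 0.0444), with 1.21% of all genes called in that direction. Leaving out ICH-Fabp4CKO mouse 2 gave 1.04 with an adjusted p of 0.0366. This comparison shares its mice with the comparisons above and is not a separate observation. Tnfrsf14 had an interaction of 1.91 (SE 0.79, adjusted p = 0.447). For Tnf (2.92, SE 1.67, adjusted p = 0.592), Tnfrsf1b (1.15, SE 0.65, adjusted p = 0.583), Tnfrsf1a (0.18, SE 0.47, adjusted p = 0.935), Tnfsf10 (-0.47, SE 0.30, adjusted p = 0.636) and Tnfsf8 (-0.28, SE 1.47, adjusted p = 0.97) no difference in response was detectable with 3 mice a group. The fitted values of Tnf and Tnfsf8 there depend on sham libraries at the floor. Without ICH-Fabp4CKO mouse 2 the interaction of Tnfrsf1b was 1.58 (adjusted p = 0.0487), and 7 members had an unadjusted p under 0.05 and 2 an adjusted one, beside 11.9% and 1.7% of all genes.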

How the data were processed

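Whole-tissue poly(A) RNA from 12 mice, 3 in each of 4 groups, was made into libraries with the NEBNext Ultra kit and sequenced on a NovaSeq. The authors deposited an estimated count per gene and library, without normalization. Per the submitters' processing notes the tools were Bowtie2 2.2.8, HISAT2, StringTie 1.3.1 and DESeq2, whose roles are not stated there, and the genome build and strand setting are not given in the sources used here. Replicates are taken as separate mice. The labels do not say so, and p-values measure the spread between these libraries.

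Counts were rounded. edgeR 4.0.16 under R 4.3.3 gave the tests (quasi-likelihood F, TMM factors, genes kept by filterByExpr at 10 counts and 15 in total). Each fit used only the libraries of its 2 groups, or all 12 for the interaction, with Benjamini-Hochberg adjustment over all genes tested and a threshold of 0.05. The standard error is the log2 fold change divided by the root of F. The test was checked on simulated counts in which no library stood apart, so that check does not cover a group with an outlying mouse. A gene at or under 3 counts in every library of a group was at the floor, and a bound divides the ICH mean by the mean CPM of 3 counts. Floors cover counting error only. Of the 21956 gene identifiers 21852, and all members, matched GENCODE vM21, the source of positions and exon lengths on GRCm38. Python 3.11.15, pandas 2.3.3 and matplotlib 3.10.9 were used for summaries and figures.

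The members and lists were chosen with earlier results of these data known. Values in every mouse are given for Tnf, Tnfrsf1a, Tnfrsf1b, Tnfsf8 and Tnfsf10, for the 8 members in each direction with the largest fold change among those called without overlap in each ICH comparison, and for members with an unadjusted p under 0.05 in a genotype comparison or the interaction. In the other lists the 3 smallest p in each direction, and Vcam1, Icam1, Sele and Selp, are named. Alternatives were relative log expression factors, total counts, DESeq2 1.42.0, no filter, 10 counts in every library, a replicate block, 1 fit of all libraries, a filter on the sham libraries (added after the data were seen) and each library left out in turn.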

Additional observations from a re-analysis of the deposited data

Results flagged for a closer look

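For Tnfrsf21 every ICH-Fabp4flox/flox mouse lay below the mean of its sham group and every ICH-Fabp4CKO mouse lay above the mean of its own. The response to ICH in Fabp4CKO minus that in Fabp4flox/flox was 0.89 on the log2 scale (SE 0.25, adjusted p = 0.304, edgeR), so that the difference itself did not pass the adjusted threshold in this fit. The adjusted p was 0.0444 with DESeq2 and ran from 0.0366 to 0.628 when single libraries were left out.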

How the results depend on the processing

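Depth limits 13 members, whose counts allowed no test, and 3 mice a group limit the genotype comparisons. Among single genes named, 457 values kept their direction and side of the threshold under an alternative, 36 lost the threshold, 16 gained it and 16 turned sign. Of the counts of members, 194 stayed within 1.5 times and 38 did not. The cause of these moves was not tested, other than that stricter filters leave fewer genes.

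With at least 10 counts in every library the members higher after ICH numbered 13 of 17 tested in Fabp4flox/flox and 12 of 16 in Fabp4CKO. Among all genes 3372 of 13397 and 3060 of 13483 were higher under that filter. With the filter on the sham libraries, chosen after seeing the data, 15 of 19 members were higher in Fabp4flox/flox, beside 25.1% of all genes. Leaving out single libraries gave 0 to 1 members lower in Fabp4flox/flox and 6 to 26 higher in Fabp4CKO. Over all genes these fits gave 1465 to 3856 lower and 701 to 5203 higher. Between genotypes after ICH, 1 member was higher at an adjusted p with DESeq2 and with all 12 libraries in one fit, beside 1.75% and 1.02% of all genes. At an unadjusted p, 1 was higher with the replicate block and 1 to 10 without single libraries, and 2 were lower with total counts, 3 with DESeq2, 2 with all 12 libraries in one fit and 0 to 4 without single libraries. In the same order, the counts over all genes were 493 and 531 to 1935 higher, and 964, 1203, 1658 and 502 to 1106 lower. In sham mice single libraries gave 0 to 2 lower at an adjusted and 0 to 5 at an unadjusted p, beside 0 to 1331 and 508 to 2365 of all genes. For the interaction DESeq2 gave 1 higher at an adjusted p and single libraries 0 to 2, and at an unadjusted p the filter of 10 counts in every library gave 1 and single libraries 1 to 7. Over all genes the same fits gave 183 and 0 to 260, and 641 and 620 to 1820.

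The genotype difference of Tnfrsf1a after ICH, 0.01 on the log2 scale, turned to -0.0153 with relative log expression factors and DESeq2, -0.0485 with total counts, -0.0491 with all 12 libraries in one fit and -0.0666 with the replicate block, and ran from -0.23 to 0.34 over the libraries left out, below 0 without ICH-Fabp4flox/flox mouse 3, ICH-Fabp4CKO mouse 1 or mouse 3. That of Tnfrsf1b in sham turned to 0.006 without Sham-Fabp4flox/flox mouse 1 (-0.31 to 0.006 over the libraries left out). The interaction of Tnfrsf1a was below 0 without ICH-Fabp4flox/flox mouse 3 or ICH-Fabp4CKO mouse 3 (-0.0328 to 0.51). That of Tnfsf8 ran from -1.53 to 0.37, above 0 without Sham-Fabp4flox/flox mouse 2 or 3, Sham-Fabp4CKO mouse 2, ICH-Fabp4flox/flox mouse 1 or ICH-Fabp4CKO mouse 2. None of these was called in any setting.

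The labels do not say whether replicate numbers pair the mice. Same-numbered deviations correlated at 0.196, 0.023 and 0.127 between sham and ICH in Fabp4flox/flox, against -0.188 to 0.0316 for unlike numbers. Between genotypes after ICH they correlated at 0.311, -0.166 and -0.575, against -0.556 to 0.642. In Fabp4CKO they were -0.00457, -0.00771 and -0.00438, against -0.0327 to 0.0368, and between genotypes in sham 0.0618, -0.175 and -0.0888, against -0.145 to 0.214. With the replicate block 23 members were higher after ICH in Fabp4flox/flox and 19 in Fabp4CKO, beside 3967 of 14719 and 2579 of 14737 genes.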
